A study of Mus musculus with 3 samples.

Results

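This section describes 10 genes that mark or set epithelial and mesenchymal state, among 21883 protein-coding genes of the annotation used, and the CUT&Tag peaks that lay in or around them. The genes were listed by name. Epithelial genes were Cdh1, Epcam, Esrp1 and Ovol1 (4 genes), and mesenchymal genes were Vim, Zeb1, Zeb2, Snai1, Snai2 and Twist1 (6 genes). In CUT&Tag a transposase is tethered to a chromatin protein through an antibody, and it cuts and tags the nearby DNA, which is then sequenced. The cells were Pan02, an established mouse line of pancreatic ductal cancer, and 3 libraries were made from them: Flag antibody in cells that stably express POH1-Flag, MYC antibody in the same POH1-Flag cells, and MYC antibody in cells with the empty vector. POH1, encoded by Psmd14, is a deubiquitinase of the proteasome lid. The sources used here do not give the promoter behind the POH1-Flag construct or say whether the line is a single clone. Each group had 1 library, so differences between cell lines have no replicate check, and intervals cover counting error only.

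Epithelial cells hold to one another through E-cadherin, the product of Cdh1, and in the epithelial-mesenchymal transition they lose these contacts and gain vimentin filaments and motility. The transcription factors of the Snail, ZEB and Twist families drive this change, in part by binding CACCTG elements in the Cdh1 promoter and shutting the gene down. Ovol1 and Esrp1 work on the epithelial side, Ovol1 as a transcription repressor that opposes Zeb1 in other settings and Esrp1 as a splicing regulator. MYC binds DNA with its partner MAX, with a preference for the element CACGTG, and sits at the promoters of many active genes. The peak lists show where signal was called and measure no RNA, so the epithelial or mesenchymal state of the cells themselves was not measured.

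A summit counted as near a gene end when it lay within 1 kb of either end, and as farther when it lay elsewhere in the gene or within 20 kb of it. The lists held 2936 peaks for Flag, 22647 for MYC in POH1-Flag cells and 12175 for MYC in vector cells. Depth was taken as reads per kb, the lowest background of a list divided by its smallest peak width. Depths were similar: set against the vector MYC library, the Flag library was at 1.05 and the POH1-Flag MYC library at 1.06. Without that division the backgrounds were 0.826 for POH1-Flag MYC and 0.845 for vector MYC, and these scale the ratios below unless stated. Pileup means the whole number of reads over a summit, worked out from the fold enrichment and the −log10 p of the authors. Of 10 marker genes for each cell type, MYC peaks lay near an end of 4 ductal genes in POH1-Flag cells and 3 in vector cells, of 1 and 0 fibroblast genes, of 2 and 1 macrophage genes, and of no acinar gene in either. Over all protein-coding genes the shares were 40.0% and 28.2%, so the ductal counts lay near the background and do not mark a cell type.

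Sequences are given for the bases before Vim and Snai1, the 2 members with a MYC peak over the promoter in both cell lines. A short stretch of Epcam, which holds a CACGTG without a peak, is given too. At Vim the printed bases hold the vector summit only. The POH1-Flag summit, 599 bp before the start, lies upstream of them. The sequences come from the RefSeq promoter table of GRCm38.p6, which matched 5 of the 10 members (Epcam, Snai1, Twist1, Vim and Zeb2). Capitals mark the MYC and MAX element CACGTG, the Snail and ZEB element CACCTG, and a variant MYC element, CACGCG, each on either strand. The 3 motifs do not overlap in these stretches.
Vim, 250 bases before the gene start, chr2:13574061-13574310, plus strand: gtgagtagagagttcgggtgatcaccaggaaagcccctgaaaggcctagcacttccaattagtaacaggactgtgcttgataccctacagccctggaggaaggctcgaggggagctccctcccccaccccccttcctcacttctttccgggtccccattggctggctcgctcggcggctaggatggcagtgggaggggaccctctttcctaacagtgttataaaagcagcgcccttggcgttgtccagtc
Snai1, 250 bases before the gene start, chr2:167537945-167538194, plus strand: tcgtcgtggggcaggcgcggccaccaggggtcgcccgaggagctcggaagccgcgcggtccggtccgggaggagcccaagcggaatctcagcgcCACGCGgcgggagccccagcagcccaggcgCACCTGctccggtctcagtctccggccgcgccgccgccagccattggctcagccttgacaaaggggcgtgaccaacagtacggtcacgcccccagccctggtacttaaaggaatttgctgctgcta
Epcam, 30 bases around its CACGTG, chr17:87635997-87636026, plus strand: ggactgattctgCACGTGagacctgcggcg

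In the stretch of 300 bases around the start that the table gives (250 before, 50 after), neither Vim nor Twist1 had any of the 3 motifs, and neither did any of the 4 Zeb2 entries. The Vim promoter peaks, 1099 bp wide in POH1-Flag cells and 1069 bp in vector cells, reach beyond this stretch. Their other bases were not searched for motifs. Snai1 had a CACCTG that begins 126 bases before the start, and a CACGCG that begins 156 bases before it. Epcam had a CACGTG that begins 31 bases after the start and 2 copies of CACCTG, which begin 187 and 19 bases before it. Among 21262 promoters of protein-coding genes, 7.84% held CACGTG. The Snail and ZEB element CACCTG was found in 19.7% of these promoters. The variant CACGCG was found in 12.1% of them. A motif match is a description of the letters and says nothing of binding.

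MYC peaks near a gene end were found at 3 of the 10 genes in POH1-Flag cells (Vim, Snai1 and Ovol1) and at 2 in vector cells (Vim and Snai1). Vim and Snai1 thus had one in both, as did 27.6% of all genes. Over all protein-coding genes the shares were 40.0% and 28.2%, so the members' counts lay near or below the background. By class, 1 of 4 epithelial and 2 of 6 mesenchymal genes had such a peak in POH1-Flag cells, against 0 of 4 and 2 of 6 in vector cells. Flag had no peak near any of them, as against 0.196% of all genes. Classes of 4 and 6 genes are too small for these counts to set the classes apart, and no test between them was run.

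**Figure D1:**
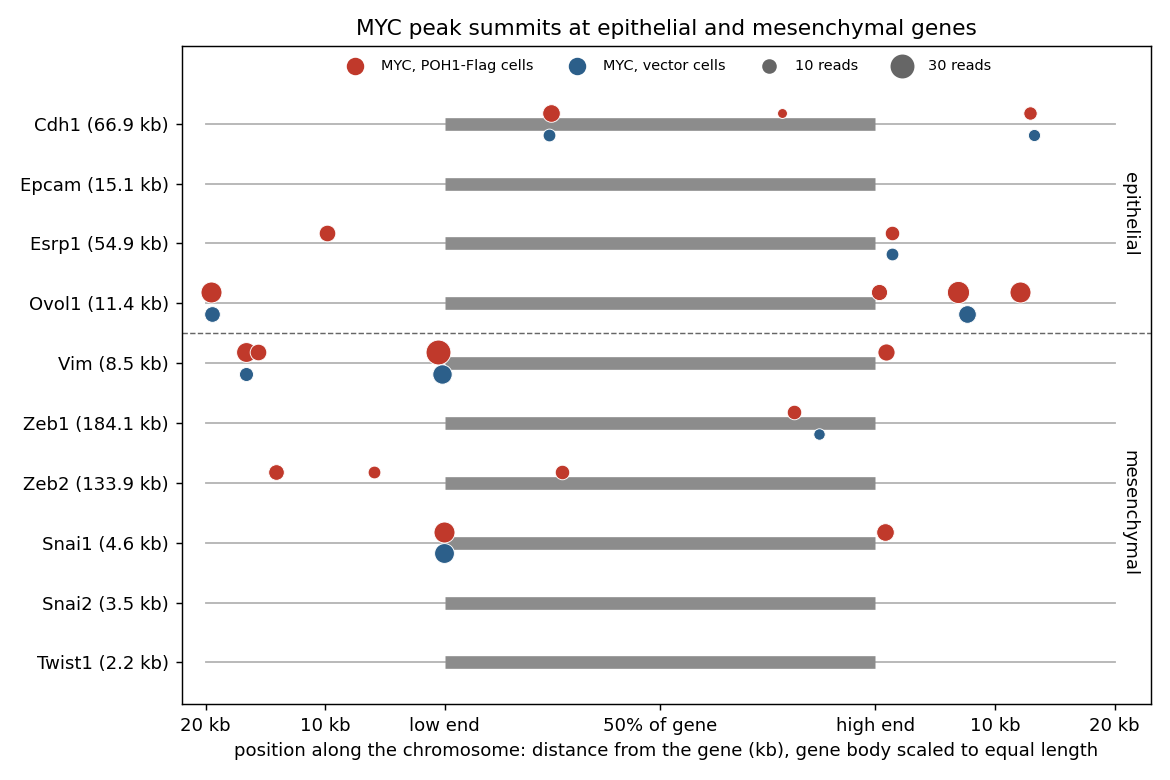
Summits of MYC peaks along each of the 10 genes (rows) and 20 kb on each side, with the gene body scaled to equal length, red for POH1-Flag cells and blue for vector cells, and dot area proportional to the reads at the summit. Low and high end are by chromosome position. Sites at a gene end in both cell lines are seen at Vim and Snai1, and no peak is drawn at Epcam, Snai2 or Twist1.

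Vim encodes vimentin, the intermediate filament protein of mesenchymal cells, and lies on chromosome 2 from 13574311 to 13582826. Its promoter peak reached 38 reads in POH1-Flag cells (exact Poisson 95% interval 26.9 to 52.2) and 23 reads in vector cells (14.6 to 34.5). This was the strongest member peak of the POH1-Flag list by the authors' −log10 q, at 17.2, and the vector peak had 8.37. The peaks covered all 300 bases of the promoter stretch in both cell lines, and their summits lay 599 bp (POH1-Flag) and 199 bp (vector) before the gene start. Within their own lists, 16.6% of the gene-end peaks were stronger in POH1-Flag cells and 31.3% in vector cells. The ratio of POH1-Flag to vector cells, after each pileup was divided by its library's genome-wide background, was 1.69, and its 95% counting interval (0.982 to 2.97) held 1.

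A further Vim peak of 18 reads lay 872 bp beyond the 3′ end in POH1-Flag cells, where the vector list had no peak within 9586 bp. Upstream of Vim, outside the gene, peaks of 24 reads in POH1-Flag cells and 12 reads in vector cells shared a site 16.6 kb before the start (ratio 2.05, 0.984 to 4.49). Divided by the local background of each summit in place of the genome-wide one, that ratio was 1.06. A smaller peak of 17 reads, 15.6 kb before the start, was listed in POH1-Flag cells only. The window of Vim thus held 4 peaks in POH1-Flag cells and 2 in vector cells.

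Snai1 encodes Snail, a zinc finger repressor of Cdh1, and lies on chromosome 2 from 167538195 to 167542814. Its promoter peak was of similar height in the cell lines, with 27 reads in POH1-Flag cells (17.8 to 39.3) and 24 reads in vector cells (15.4 to 35.7). Summits lay 85 bp and 34 bp before the gene start, and the authors' −log10 q was 12.2 and 11.5. The POH1-Flag peak covered all 300 bases of the promoter stretch and the vector peak 299 of them, so the CACCTG and the CACGCG printed above lay under the peak in both libraries. The ratio was 1.15 (0.639 to 2.08), which was the lowest of the 7 shared sites of the members. At this depth a difference was not detectable.

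Snai1 too had a peak beyond its 3′ end in POH1-Flag cells, with 19 reads at 790 bp, and the nearest vector summit was 5443 bp away. A separate peak near each end of the gene was thus seen at 2 of the 10 members in POH1-Flag cells and at none in vector cells. This pattern was picked out after the values were seen. It occurred at 1.38% of all protein-coding genes in POH1-Flag cells (302 genes) and at 0.484% in vector cells.

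Of the other mesenchymal regulators, Zeb1 and Zeb2, which encode zinc finger repressors of epithelial genes, had no peak near their ends, and their peaks held 8 to 15 reads. In Zeb1 (chromosome 18, 5591327 to 5775468) both cell lines had a peak inside the gene, but at different places. The POH1-Flag peak, of 13 reads, lay 34.9 kb from the nearer gene end, and the vector peak, of 8 reads, lay 24.2 kb from that end. Their summits were 10688 bp apart. Zeb2 (chromosome 2, 44983512 to 45117442, minus strand) had 3 peaks in POH1-Flag cells and none in vector cells. They held 13 reads inside the gene, 36.3 kb from its 3′ end, and 10 and 15 reads at 5.9 and 14.1 kb beyond that end (5915 and 14122 bp). The nearest vector summit to Zeb2 was 56.2 kb away, 447 bp from an end of Gtdc1.

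Snai2 (chromosome 16, 14705852 to 14709395), which encodes Slug, a relative of Snail, and Twist1 (chromosome 12, 33957671 to 33959831), which encodes a basic helix-loop-helix factor, had no peak within 20 kb in any of the 3 libraries. The MYC summit nearest to Twist1 lay 80.4 kb away in POH1-Flag cells and 81.2 kb in vector cells. For Snai2 it was 74.6 kb in each, at a site where the Flag library also had a peak (74.6 kb), so that site was not particular to the MYC antibody. Distances of this size were not rare. Of all protein-coding genes, 19.0% in POH1-Flag cells and 30.1% in vector cells had their nearest MYC summit farther off than Twist1.

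Among the epithelial genes, Cdh1 (chromosome 8, 106603350 to 106670247) had no MYC peak near either end. A site inside the gene, 16.5 kb from its low-coordinate end, was shared, with 19 reads in POH1-Flag cells and 10 reads in vector cells (ratio 1.94, 0.860 to 4.68). The 2 peaks overlapped by only 221 bp, with summits 385 bp apart, and by the local background the ratio was 1.35. A second peak inside the gene was listed in POH1-Flag cells only, with 6 reads, the lowest pileup of any member peak. The remaining peaks in the window lay at an end of the neighbouring gene Tango6. There the POH1-Flag peak of 11 reads was 142 bp from the Tango6 end and the vector peak of 9 reads was 457 bp from it. These peaks did not overlap, though their summits were only 315 bp apart, so each counts as found in a single list.

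Epcam (chromosome 17, 87635979 to 87651127), which encodes an epithelial cell adhesion molecule, had no peak in its window in any library. None of the 300 promoter bases of Epcam, the CACGTG among them, was under a peak.

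Esrp1 (chromosome 4, 11331933 to 11386783) had a shared site just past the limit for a gene end. It lay 1364 bp (POH1-Flag, 13 reads) and 1376 bp (vector, 10 reads) from the high-coordinate end of the gene, inside the long non-coding RNA gene Gm35631, with a ratio of 1.33 (0.539 to 3.39). The other Esrp1 peak, of 17 reads in POH1-Flag cells only, was 32 bp from an end of the neighbour Dpy19l4.

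Ovol1 (chromosome 19, 5549137 to 5560575) had 4 peaks in POH1-Flag cells, the most of the epithelial genes there, and 2 in vector cells, as many as Cdh1. Its gene-end peak, 16 reads at 285 bp, was listed in POH1-Flag cells only. The gene Ap5b1, which encodes a subunit of an adaptor protein complex, overlaps that end of Ovol1, and the summit was also 610 bp from an end of Ap5b1 and inside it. The authors' −log10 q there was 4.74. The nearest vector summit was 7362 bp away, and a gene-end peak in POH1-Flag cells alone was found at 12.4% of all protein-coding genes. With peaks of a −log10 q of at least 5 alone, no epithelial gene had a gene-end peak, against 33.9% of all genes in POH1-Flag cells and 18.9% in vector cells.

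The stronger Ovol1 sites lay farther out. At 19.5 kb from the low-coordinate end, inside the pseudogene Gm31166, the pileups were 27 reads in POH1-Flag cells and 15 reads in vector cells (ratio 1.84, 0.945 to 3.72, and 1.09 by the local background), and the authors' −log10 q was 16.0 and 7.68. Inside Ap5b1 lay a broad site of 30 and 19 reads whose summits were 700 bp apart (1.62, 0.880 to 3.04). A peak of 27 reads, 12.1 kb from Ovol1, was found in POH1-Flag cells only.

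**Figure D2:**
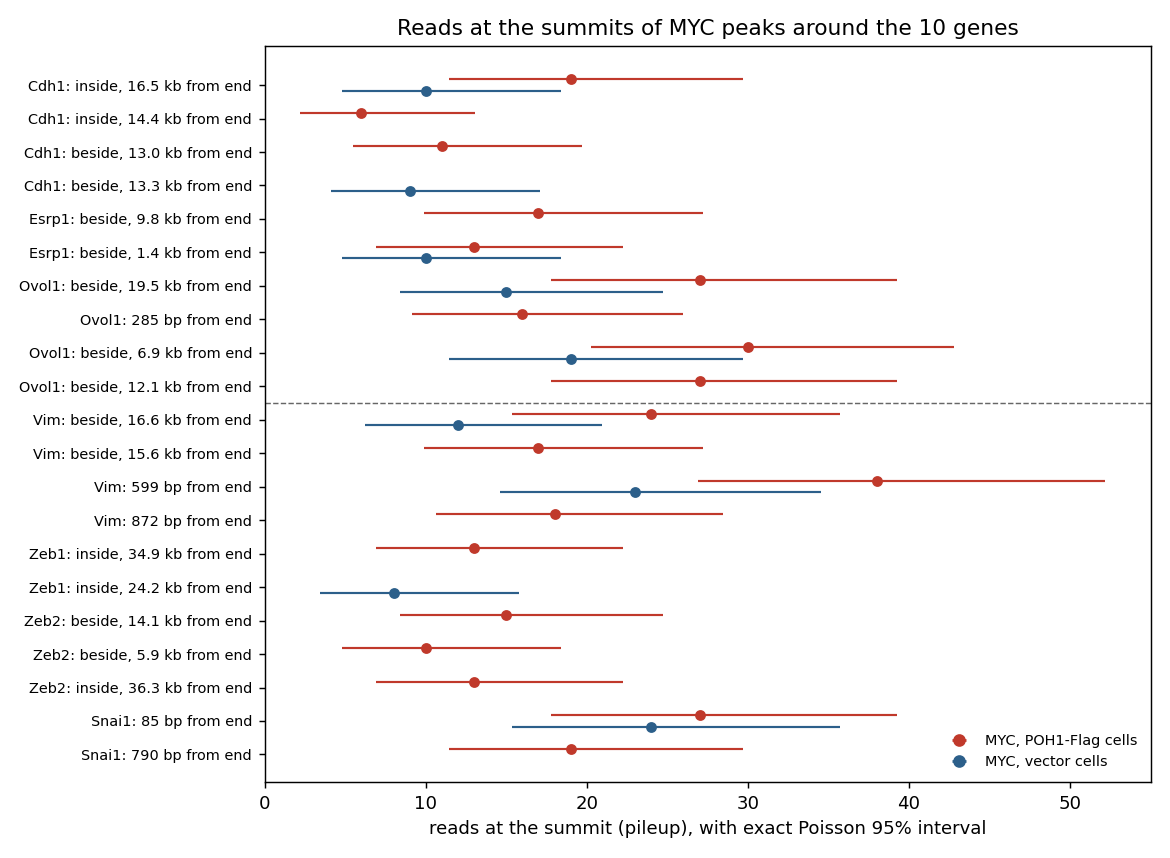
Reads at the summit of each MYC peak around the 10 genes (points, x axis) with exact Poisson 95% intervals (bars), red for POH1-Flag cells above blue for vector cells, and a row per site named by its gene and its distance from the nearest gene end. A row with a single point is a site listed in that library alone. The Vim promoter peak of POH1-Flag cells, at 38 reads, is the highest, and the intervals of the 2 libraries overlap at every shared site.

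Over the windows of all 10 genes there were 19 MYC peaks in POH1-Flag cells, with pileups of 6 to 38 reads (median 17), against 9 peaks of 8 to 24 reads (median 12) in vector cells. Of the 19, 5 lay near an end of the member and 14 farther, and of the 9 vector peaks 2 lay near an end and 7 farther. At least 1 peak in the window was found for 7 members in POH1-Flag cells and for 6 in vector cells, against 65.5% and 50.8% of all protein-coding genes. A peak in the window beyond the gene ends was found for 6 and 5 members, against 52.0% and 36.4% of all genes. No Flag peak lay in any window, and 6.53% of all genes had one.

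By class, 9 peaks in POH1-Flag cells lay in the 308 kb of epithelial windows and 10 in the 577 kb of mesenchymal windows. That is 2.92 and 1.73 peaks per 100 kb, against 1.65 in the windows of all genes. In vector cells the values were 1.62 for epithelial (5 peaks), 0.693 for mesenchymal (4 peaks) and 0.973 for all genes. Peaks near an end of the member made up 1 of 9 epithelial and 4 of 10 mesenchymal peaks in POH1-Flag cells, and 0 of 5 and 2 of 4 in vector cells. Of the epithelial peaks, 3 of 9 in POH1-Flag cells and 1 of 5 in vector cells lay within 1 kb of an end of a neighbouring gene (Tango6, Dpy19l4 or Ap5b1), while no mesenchymal peak did in either cell line. The highest pileups of the classes were close, with 30 reads at Ovol1 and 38 at Vim in POH1-Flag cells, and 19 at Ovol1 and 24 at Snai1 in vector cells. These are counts over few genes, and no test between the classes was run.

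Between the MYC libraries, 7 member sites were shared, 12 were listed in POH1-Flag cells only and 2 in vector cells only. The whole lists were unequal too, with 22647 and 12175 peaks and 9232 shared sites without a Flag peak. These member counts therefore do not set the 10 genes apart. All 7 shared sites had a ratio above 1, with a median of 1.69, and no interval excluded 1. Over all 9232 shared sites without a Flag peak the median was 1.59, 94.8% were above 1, and the interval excluded 1 on the upper side at 21.7%. The members' ratios thus lay close to those of the whole lists. Scaled by the local background of each summit, the median was 1.09 over the 7 member sites and 1.03 over all 9232 sites. The ratio was then above 1 at 5 of the 7 sites, and below 1 at Esrp1 (0.936) and at the Snai1 promoter (0.872). Scaled to the vector background, each of the 12 sites found in POH1-Flag cells alone had enough reads to reach the smallest −log10 p that the vector list holds, from 6.14 reads where 6 were needed at Cdh1 to 27.6 where 16 were needed at Ovol1. These peaks had already passed the limit of their own list at a similar background, so that count was close to fixed in advance.

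The members were set beside wider lists of genes of the same states, from which the 10 members were left out. Of 51 other epithelial genes, 21 had a MYC peak near an end in POH1-Flag cells and 16 in vector cells (41.2% and 31.4%). Of 44 other mesenchymal genes it was 18 and 11 (40.9% and 25%). Both lists thus lay near the shares of all genes, 40.0% and 28.2%. Of 30 genes for TGF-beta signalling and other inducers of the transition, 24 and 17 had one (80% and 56.7%). The POH1-Flag MYC list was the longer one. With it cut to the length of the vector list by −log10 q, the counts in POH1-Flag cells were 14 epithelial genes, 13 mesenchymal genes and 17 inducers, against 16, 11 and 17 in vector cells, and the share of all genes was 31.6% in POH1-Flag cells. No gene of these lists had a peak near an end in vector cells only, as 0.562% of all genes did, and none had a Flag peak there.

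**Figure D3:**
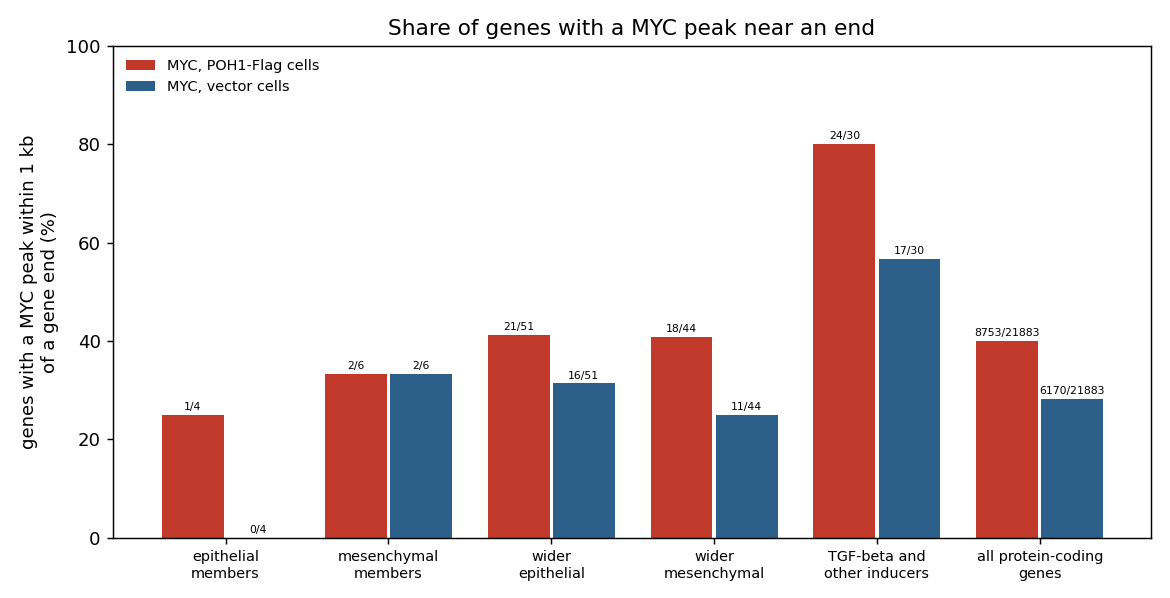
Share of genes with a MYC peak within 1 kb of either gene end (y axis, percent) for the members by class, the wider lists and all protein-coding genes, red for POH1-Flag cells and blue for vector cells, with counts above the bars. The wider epithelial and mesenchymal lists lie between 25% and 41.2%, near all genes at 40.0% and 28.2%, and the inducers stand at 80% and 56.7%.

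The strongest epithelial genes by −log10 q in POH1-Flag cells were Cldn3, a tight junction claudin, with 38 reads in POH1-Flag cells and 17 reads in vector cells (ratio 2.29, 1.26 to 4.32), and Pard6b, a cell polarity gene, with 39 and 23 reads (1.74, 1.01 to 3.04). Next were the transcription factor genes Klf5 and Klf4, each with 33 and 20 reads (1.69, 0.941 to 3.10), and Ctnna1, which encodes the alpha-catenin that ties cadherins to actin, with 22 and 12 reads (1.88, 0.889 to 4.16). At Cldn3 and Pard6b the interval lay above 1. It also did at Ctnnb1, the beta-catenin gene, which was named after its values were seen (23 and 10 reads, 2.35, 1.08 to 5.54). These were 3 of 14 genes of the list with paired peaks, against 24.9% of 5161 shared gene-end sites, so the list lay near the background. Scaled by the local background, the ratios were 1.29 at Cldn3, 1.04 at Pard6b and 1.34 at Ctnnb1, and every one of the 14 intervals held 1. Peaks near an end were listed in POH1-Flag cells only at Esrp2, Jup, Krt7, Marveld2 and Ocln (5 of 51 genes, against 12.4% of all genes). Neither cell line had one at 30 of the 51 genes, near the 59.4% of all genes, among them the other claudins of the list, Dsp, Grhl2, Krt8, Krt18 and Krt19.

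Among the mesenchymal genes Fn1, the fibronectin gene, had 34 reads in POH1-Flag cells and 26 reads in vector cells (ratio 1.34, 0.780 to 2.32). The E-protein genes followed, Tcf3 with 32 and 24 reads (1.36, 0.779 to 2.42) and Tcf4 with 21 and 11 reads (1.95, 0.900 to 4.49). S100a4 had 29 reads at 994 bp in POH1-Flag cells and no vector peak near an end. With Snai3, Foxc2, Pdgfrb, Axl, Msn and Cald1 it made 7 of 44 genes with a gene-end peak in POH1-Flag cells only. Over all genes that share was 12.4%. At Fn1, Tcf3 and Tcf4 the interval held 1, and by the local background the ratios at Fn1 (0.930) and Tcf3 (0.878) were below 1. The interval lay above 1 at 0 of the 10 genes of the list with paired peaks, against 24.9% of shared gene-end sites. No test of this difference was run. Neither cell line had a peak near an end at 26 of the 44 genes, near the 59.4% of all genes. Among them were the cadherin genes Cdh2 and Cdh11, the 5 collagen genes of the list, Prrx1 and Twist2.

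Of the inducers, the strongest were Skil and Ski, which encode corepressors that bind SMAD proteins, with 52 reads in POH1-Flag cells and 34 in vector cells at Skil (ratio 1.56, 0.997 to 2.49) and 44 and 27 at Ski (1.67, 1.01 to 2.80). Smad3, a transducer of TGF-beta signals, had 42 and 29 reads (1.48, 0.902 to 2.47). The receptor gene Bmpr2 had 36 and 25 reads (1.47, 0.860 to 2.56), and Stat3 had 36 and 21 (1.75, 0.997 to 3.16). Only at Ski, of the 17 genes of this list with paired peaks, did the interval lie above 1, against the 24.9% of shared gene-end sites. Scaled by the local background the ratio at Ski was 1.04, its interval held 1, and the ratios at Skil (0.891), Smad3 (0.847) and Bmpr2 (0.992) were below 1. Tgfb1, Tgfb3, Tgfbr2, Acvr1, Smad7, Id1 and Id2 had a peak near an end in POH1-Flag cells only (7 of 30 genes, against 12.4% of all genes). Tgfb2, Tgfbr3, Ltbp1, Notch1, Wnt5a and Hmga2 had one in neither (6 of 30, against 59.4% of all genes). Counting by a −log10 q of at least 10 left 10 inducers in POH1-Flag cells and 5 in vector cells, against 20.1% and 6.91% of all genes.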

How the data were processed

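CUT&Tag libraries were compared through the authors' deposited peak lists, 1 per library, so peaks were not called on pooled reads. Per the submitters' processing notes, the tools were MACS2 2.2.7.1, BWA 0.7.17-r1188, Trim Galore 0.6.6 and FastQC 0.11.9, with build GRCm38/mm10 and no role or parameters stated. The sources used here name no control library or duplicate handling, and no read totals. The lists follow the narrowPeak layout without headers. Deposited values are the fold enrichment of each summit (a linear ratio), its −log10 p and −log10 q, and a score that is 10 times −log10 q in nearly all peaks. Limits on fold and q were applied to each list by itself, and no ratio of fold or q between lists was taken. Values of q, and counts at the same limit, stand side by side for both MYC lists as description only.

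For each peak, the pair of pileup k and background λ was found that gives both the deposited fold, (k + 1)/(λ + 1), and the Poisson −log10 p. A whole k came out for 100% of peaks in each list, within 0.01 of a read step. Each library's lowest λ served as its genome-wide background: 0.946 (Flag), 0.826 (POH1-Flag MYC) and 0.845 (vector MYC). Ratios carry exact conditional Poisson 95% intervals, which kept PCR duplicates would make too narrow.

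Gene positions (21883 protein-coding genes, no exons) were those of RefSeq on GRCm38.p6, and strand came from its promoter table. A site was shared when a peak in each list had the other as its highest-q match among peaks that share at least 1 bp. A peak between neighbours counts for each. The members, the wider lists, the tests and the alternatives were chosen with earlier results of these data known. All 10 members are named, and from each wider list the 5 genes with the largest −log10 q in POH1-Flag cells, any with a vector peak only and any with a Flag peak, except items that are not reported here. Other names were chosen after their values were seen. Steps were tested on simulated data. Python 3.11.15, numpy 2.4.6, pandas 2.3.3 and scipy 1.17.1 were used.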

Additional observations from a re-analysis of the deposited data

How the results depend on the processing

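No paired analysis was possible because each group had 1 library, and for the same reason no replicate could be left out. Pairs of counts below give POH1-Flag cells before vector cells. At a −log10 q of at least 5, 0 epithelial members had a gene-end peak in POH1-Flag cells, 3 members (1 of them epithelial) had a peak in the window in vector cells, and 5 genes of the wider mesenchymal list had a gene-end peak in vector cells. At a −log10 q of at least 10, 0 epithelial members in POH1-Flag cells and 1 member in vector cells (1 mesenchymal) had a gene-end peak, and 3 and 1 members had a peak in the window (epithelial 1 and 0, mesenchymal 2 and 1). The wider lists then had 10 and 1 epithelial, 4 and 3 mesenchymal and 10 and 5 inducer genes. Over all protein-coding genes the gene-end shares were 20.1% and 6.91% at this limit. At a −log10 q of at least 5 they were 33.9% and 18.9%. At a fold of at least 5, 0 epithelial members had a gene-end peak in POH1-Flag cells, 3 members (1 epithelial) had a vector peak in the window, the wider mesenchymal list had 10 and 5 genes and the inducers 14 in POH1-Flag cells. With the POH1-Flag MYC list cut to the vector length, or without peaks at an end of another gene, the epithelial gene-end count was 0. Gene ends within 500 bp left 1 mesenchymal member in POH1-Flag cells and 10 inducers in vector cells. Gene ends within 2000 bp gave 2 and 1 epithelial members and 1 Flag gene in the wider mesenchymal list. Gene ends within 5000 bp gave 2 and 1 epithelial members, 33 wider epithelial genes in POH1-Flag cells, and 1 epithelial and 2 mesenchymal genes with a Flag peak in the wider lists. Windows of the gene and 50 kb held a Flag peak at 1 member (1 mesenchymal, Vim). Windows of the gene alone held a MYC peak at 3 and 2 members (epithelial 1 and 1, mesenchymal 2 and 1). Among these settings, shares of all genes were worked out only for gene-end MYC peaks at the −log10 q limits and in the cut list. The other counts here therefore cannot be read as high or low. The median ratio over shared member sites (POH1-Flag over vector) was 1.09 when scaled by the local background and 1.56 when scaled by reads per kb, against 1.69 as reported. With the POH1-Flag MYC list cut to the vector length, the wider lists had 14 and 16 epithelial, 13 and 11 mesenchymal and 17 and 17 inducer genes, so the direction turned in the first and the difference was gone in the last. For the wider lists the local background was tried after seeing the data, and it left 0 paired peaks with an interval above 1. The causes were not tested. The other 175 recomputed gene counts and medians stayed within 1.5 times of the reported count or 1 SD of the reported median. Part of them could not have moved. A Flag count of 0 stays 0 under a stricter limit, and cutting the POH1-Flag MYC list leaves the vector and Flag counts as they were. Leaving out sites with a Flag peak removes no member site. The total is therefore no measure of how stable the results were. Counts of peaks in the windows moved by over 1.5 times in 31 cases, lower in 23 and higher in 8. Depth limits single sites, since pileups of 6 to 38 reads carry wide counting error.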

Other observations

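Promoters under a MYC peak of POH1-Flag cells were richer in CpG than the others. Their median was 24 CpG in 300 bases (8212 promoters), against 5 under no peak (13050 promoters). The member promoters did not sort by this measure. Snai1, with a peak, had 34 CpG and Vim, with a peak, had 11, while Twist1, without a peak, had 27, Epcam had 11 and the 4 Zeb2 entries had 8 to 19. CACGTG was found in 11.7% of promoters under a peak and 5.39% under none, CACGCG in 21.3% and 6.38%, and CACCTG in 16.0% and 22.1%. Of the members with a promoter in the table, CACGTG was in Epcam alone, which had no peak.

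The Flag peak nearest to any member lay 29.2 kb from Vim, with 15 reads. For the other members the nearest Flag summit was between 74.6 kb (Snai2) and 1020 kb (Zeb1) away.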
